A study of Drosophila melanogaster with 8 samples.

Results

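The genes described here encode the respiratory chain and the ATP synthase of mitochondria, measured in heads of Canton-S flies (Drosophila melanogaster) with and without a light pulse at night. They were taken by name: every gene whose current symbol begins with ND-, Sdh, UQCR-, COX followed by a digit, or ATPsyn. The NCBI RefSeq table of gene names holds 91 such symbols, and 73 of them had a probe set annotated to 1 gene, out of 11982 genes named on the array. By prefix, 32 belong to complex I, 7 to complex II, 6 to complex III, 14 to complex IV and 14 to complex V. Each gene is represented by the probe set with the highest mean over the 8 arrays, a choice that matters for the 6 genes with more than 1.

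All flies were wild-type Canton-S adults aged 3 to 5 d, kept at 25 °C and given 4 days of 12 h of light and 12 h of darkness per day. The pulsed group received 30 min of saturating light at zeitgeber time 15, 3 h after lights off, and was frozen 1 h after the pulse, at zeitgeber time 16.5. The unpulsed group is the untreated control collected at the same time, and each group has 4 Affymetrix arrays of total head RNA. Arrays are named below by group and replicate number, so pulsed2 is replicate 2 of the pulsed group. The labels do not say that replicates came from separate sets of flies, so the p-values measure the spread between these samples, which may be technical. The number of arrays limits the precision of every value. The design asks how a pulse of light at night alters gene expression in the head.

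The respiratory chain passes electrons from NADH (complex I) and succinate (complex II) through ubiquinone to complex III, and from there through cytochrome c to complex IV, which reduces oxygen. Complexes I, III and IV pump protons across the inner mitochondrial membrane, and the ATP synthase (complex V) uses the return flow to make ATP. Most subunits are encoded in the nucleus and a few in the mitochondrial genome. Photoreceptors and neurons, which make up much of the fly head, are known for a high demand for ATP. In Drosophila many nuclear genes of this kind have duplicates, often written with an added L for "like", and many such duplicates are known to be expressed mainly in the testis.

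Of the 73 genes, 51 are subunits in their standard form, 1 is an assembly factor (Sdhaf3) and 21 carry the added L. The other 18 symbols were not analysed here, since no probe set is annotated to them alone. They are COX1, COX2 and COX3 of the mitochondrial genome, ND-23, ND-24, ND-30, ND-49, ND-49L, ND-AGGG, ND-B15 and ND-MWFE of complex I, SdhA, UQCR-C1, UQCR-C2 and UQCR-6.4L, COX6B and COX7CL, and ATPsynG. All measured members are therefore nuclear genes, and the core proteins of complex III and the flavoprotein of complex II are missing from every value below.

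Values are log2 array signals as deposited. Over all 18769 probe sets tested, the median of the mean values was 3.00, and the array medians lay between 2.95 and 3.07. Pulsed2 stood apart from the rest, with correlations of 0.985 to 0.988 against the other arrays, which correlated at 0.995 to 0.998 among themselves. The head was seen in its markers on every array: the photoreceptor arrestin Arr2 lay between 14.69 and 15.01 and the glial factor repo between 9.05 and 9.26. Markers of other organs were high on pulsed2. All 6 accessory gland genes measured were highest there, and their summed linear signal was 1729 on it against 32 on each of the other pulsed arrays and 31 to 33 on the unpulsed arrays. The same held for 6 of 13 testis genes (summed signal 377 against 74 on each other pulsed array and 73 to 77 unpulsed) and 5 of 7 gut genes (1106 against 225 to 276 and 188 to 262). No marker is at 0 on an array, since unexpressed genes keep a low signal, and bam, aly, can, sa, fzo, nht and r-cup of the testis list were at such low values on all 8. Yolk genes varied within both groups: Yp1 was between 4.82 and 5.21 on pulsed3, pulsed4 and unpulsed1 and between 11.34 and 12.68 on the other 5 arrays. In whole heads, fewer cells of a type and less RNA per cell cannot be told apart.

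The standard subunits were among the brightest genes of the head. Of the 51, 48 had a mean of at least 9, between 9.52 (UQCR-Q) and 14.12 (ND-MLRQ), which places them between the 92.3rd and the 99.6th percentile of all probe sets. The 3 others were ND-B8 at 2.51, ND-B12 at 4.15 and UQCR-11, the hinge protein of complex III, at 4.27. Sdhaf3, which helps mature the iron-sulfur subunit of complex II, was at 7.12. The split followed the symbols closely, since 20 of the 21 L genes lay between 2.16 and 3.47 and the remaining one, COX7AL2, was at 9.72. Signals of different probe sets depend on the probes as well as on the RNA, so these levels order array signals and not molecules.

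**Figure D1:**
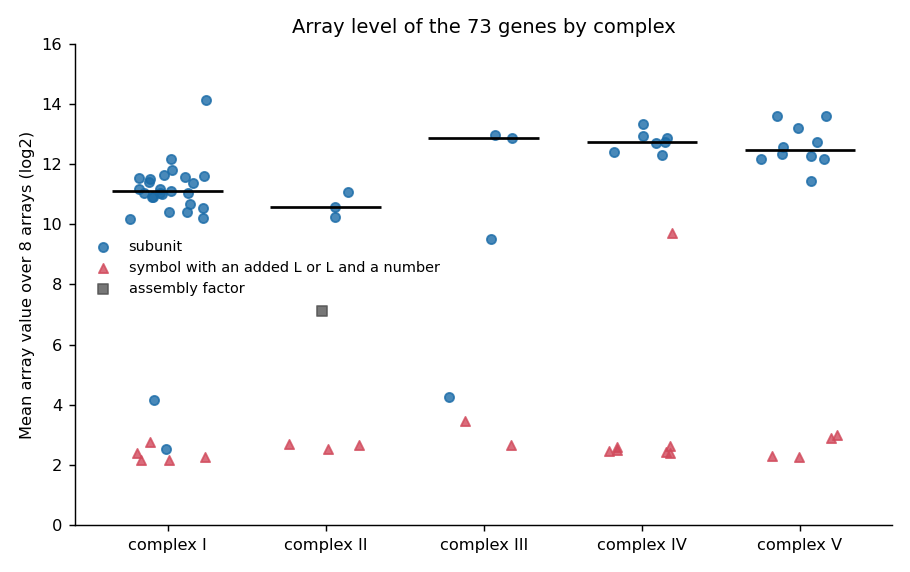
Mean log2 array signal over 8 arrays (vertical axis) of each of the 73 genes, grouped by complex (horizontal axis), with standard subunits, the assembly factor and L genes marked apart and a bar at the median of each complex's bright subunits; points are spread sideways for legibility. The 48 bright subunits sit between 9.52 and 14.12 and 20 of the 21 L genes between 2.16 and 3.47.

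Complex II and complex I had the lowest array signals among the bright subunits, and complexes III, IV and V the highest. The median over bright subunits was 10.59 for complex II (3 genes, 10.25 to 11.06), 11.10 for complex I (25 genes, 10.19 to 14.12), 12.46 for complex V (10 genes, 11.44 to 13.61), 12.75 for complex IV (7 genes, 12.30 to 13.33) and 12.86 for complex III (3 genes, 9.52 to 12.97). The place of complex III depends on the cut at 9, which leaves out UQCR-11. Over all standard subunits its median was 11.19 (4 genes), between 11.05 for complex I and 12.46 for complex V. With all members of each prefix, L genes included, the medians were 11.02, 7.12, 6.89, 11.01 and 12.23 for complexes I to V. Among the bright subunits the order was steady from array to array. Complex II was lowest and complex I second on 8 of 8 arrays, and complex V came next on each. Complex III was above complex IV on 7 arrays and below it on 1, so the order of these neighbours does not exceed the spread between arrays. The complex I median ranged from 11.04 to 11.23 over the arrays and that of complex IV from 12.65 to 12.90, and both ranges hold pulsed and unpulsed arrays.

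Within complex I, ND-MLRQ stood alone at 14.12, with values of 14.11, 14.18, 14.02 and 14.06 on the pulsed arrays and 14.07, 14.17, 14.20 and 14.19 on the unpulsed arrays. Its mammalian counterpart, NDUFA4, is now counted with complex IV. The next highest was ND-SGDH at 12.16, and the lowest bright member was ND-75, the large iron-sulfur subunit of the electron input arm, at 10.19. In complex IV the 7 bright subunits lay between COX5B at 12.30 and COX5A at 13.33. In complex V, ATPsynbeta, the catalytic subunit, and ATPsynF, a subunit of the membrane sector, led at 13.61 and 13.60, and ATPsyndelta of the central stalk was lowest at 11.44. In complex III, UQCR-14 and UQCR-6.4, small accessory subunits, were at 12.97 and 12.86 while UQCR-Q was at 9.52.

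Individual subunits varied little across the 8 arrays. The range from the lowest to the highest array was 0.105 to 0.731 for the 48 bright subunits, with a median of 0.277. COX4 was the steadiest of those named for complex IV, with 12.95, 13.02, 12.91 and 12.96 on the pulsed arrays and 12.90, 12.92, 12.91 and 12.94 on the unpulsed arrays. The widest range was that of SdhB, given below.

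At 1 h after the pulse, no gene of the respiratory chain or ATP synthase passed the test of pulsed against unpulsed heads (limma, adjusted over all 18769 probe sets, threshold 0.05). With 1 probe set per gene, the smallest adjusted p of a member was 0.854, and 0.0% of all probe sets were called. At an unadjusted p under 0.05 there were 4 members of 73 (5.48%), 3 higher and 1 lower in pulsed heads, against 4.81% of all probe sets (2.4% higher and 2.41% lower) and 13.1% of those with a mean of at least 9. Without pulsed2 the same test called 0.0% of probe sets and no member, and an unadjusted p under 0.05 was reached by 3 members (4.11%; 1 higher and 2 lower) against 3.24% of all (1.88% higher and 1.37% lower) and 8.6% of the bright ones. All of these members are bright subunits, so against the bright background the shares are 4 of 48 (8.33%), and 3 of 48 (6.25%) without pulsed2. Neither exceeds it. Of the 21 alternative fits, 1 called members: weighting arrays by their estimated quality called 11 of the 73 together with 2936 probe sets over all, with weights of 10.1 for unpulsed2 and 6.81 for pulsed3 and at most 1.64 for the others.

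For each of the 48 bright subunits the 95% interval was wider than the difference itself, and it rests on a replicate spread that may be technical. The 95% interval of the difference lay within 0.5 of 0 for 47 of the 48 bright subunits, and all intervals together spanned -0.22 to 0.60. The difference itself was under 0.2 for 47 of 48, below the pooled standard deviation of the replicates for 34, and below its own standard error for 21. A missed threshold does not show that the levels are equal.

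Across complexes the differences leaned towards higher values in pulsed heads, and that lean shrank without pulsed2. Over all 73 genes the median difference was 0.034, with 51 genes higher and 22 lower, and 0.0035 without pulsed2, with 43 higher and 30 lower. Over all probe sets the same medians were -0.0031 and 0.0026, and 41.4% and 58.5% were above 0. The 48 bright subunits had a median of 0.056 with 37 higher (77.1%), which became 0.012 with 29 higher (60.4%) without pulsed2. Among 1919 probe sets of the same brightness the medians were 0.011 and 0.010, and 53.7% were above 0 in both cases. Leaving out pulsed2 lowered the difference in 46 of the 48 bright subunits and turned its sign in 8.

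**Figure D2:**
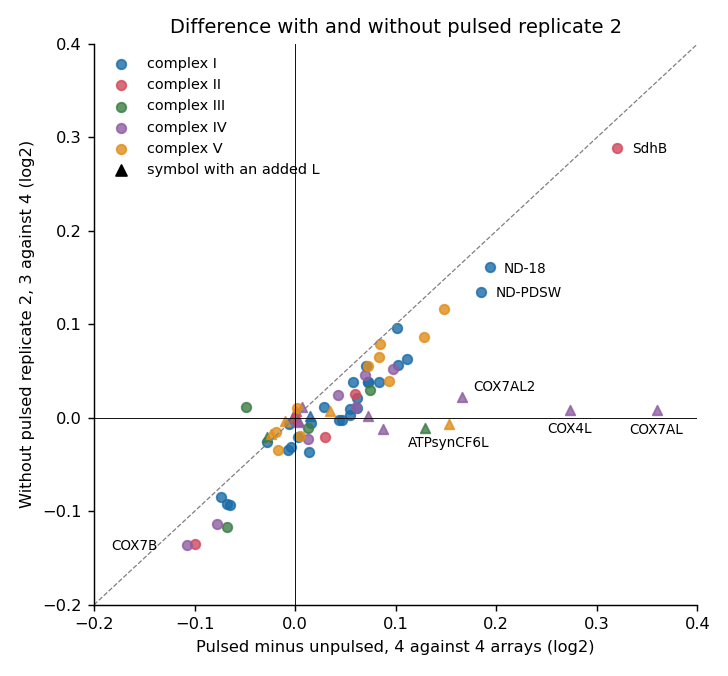
Pulsed minus unpulsed log2 difference of each of the 73 genes with 4 against 4 arrays (horizontal axis) and without pulsed replicate 2, 3 against 4 arrays (vertical axis). Colours give the complex, triangles the genes with an added L, and the dashed line equality. Most points lie below the line, and COX7AL, COX4L, ATPsynCF6L and COX7AL2 drop to within 0.03 of 0.

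By complex, taking the bright subunits, the median difference was 0.054 for complex I (19 higher, 6 lower), 0.060 for complex II (3 higher, 0 lower), 0.013 for complex III (2 higher, 1 lower), 0.043 for complex IV (5 higher, 2 lower) and 0.078 for complex V (8 higher, 2 lower). Without pulsed2 the medians were 0.011, 0.026, -0.011, 0.012 and 0.047 in the same order. The counts higher were then 15 of 25, 2 of 3, 1 of 3, 4 of 7 and 7 of 10. With all members of each prefix the medians were 0.036, 0.0029, -0.0072, 0.065 and 0.053, and 0.0031, 0.00079, -0.011, 0.0084 and 0.0093 without pulsed2. No test of the difference between complexes was made.

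The arrays were followed one by one through the median deviation of the 48 bright subunits from their own 8-array means. It was 0.037, 0.11, -0.017 and -0.054 on pulsed1 to pulsed4 and -0.049, -0.041, -0.016 and 0.033 on unpulsed1 to unpulsed4. Pulsed2 was highest, pulsed4 lowest, and unpulsed4 close to pulsed1, so the groups overlapped. For all bright probe sets the same medians stayed between -0.027 (pulsed4) and 0.037 (pulsed1), with 0.022 on pulsed2.

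**Figure D3:**
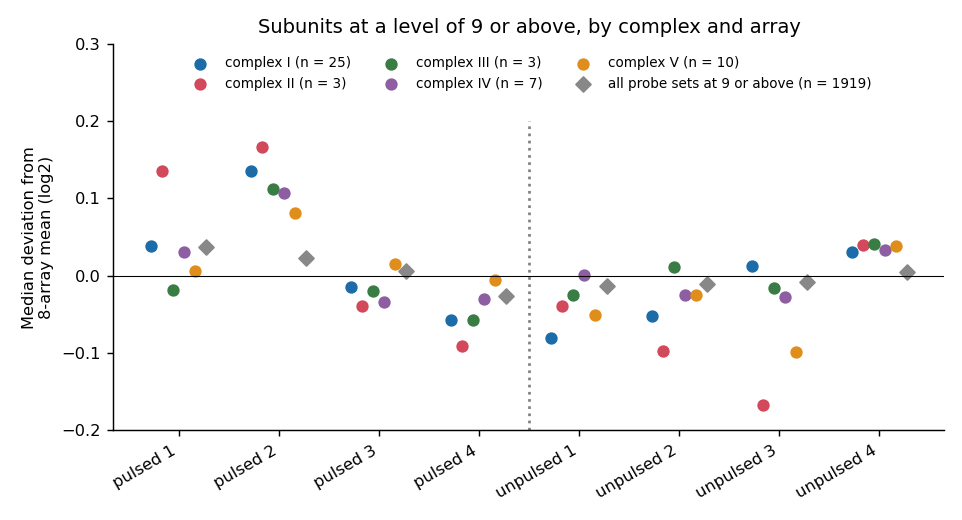
Median deviation of the bright subunits from their 8-array means in log2 units (vertical axis), for each complex and for all bright probe sets, on each of the 8 arrays (horizontal axis). Pulsed replicate 2 is the highest array for all 5 complexes, between 0.081 for complex V and 0.17 for complex II.

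Pulsed2 was the highest of the 8 arrays for 31 of the 48 bright subunits (64.6%), against 20.0% of all bright probe sets and 9.92% of all probe sets. By complex this held for 16 of 25 in complex I, 1 of 3 in complex II, 3 of 3 in complex III, 5 of 7 in complex IV and 6 of 10 in complex V. The median excess of pulsed2 over the mean of the other 7 arrays was 0.13 for the bright subunits and 0.026 for all bright probe sets. Genes of the mitochondrial ribosome (mRpL and mRpS) were highest on pulsed2 in 29.0% of 69 cases and those of the cytosolic ribosome in 43.2% of 37. Their median excess on pulsed2 was 0.10 and 0.061, with 58 of 69 and 29 of 37 genes above the mean of the other 7 arrays. Of the bright subunits 44 of 48 were above it, against 1066 of 1919 bright probe sets and 5030 of all 18769. An excess on pulsed2 was thus not particular to the respiratory chain. The part of the testis, accessory gland and gut RNA seen on the same array in this excess was not tested. Markers of head cells mostly had the opposite sign on pulsed2. Median differences from the other 7 arrays were -0.29 for 4 neuronal genes, -0.15 for 4 photoreceptor genes and -0.051 for 4 glial genes. They were -0.14 for 6 muscle genes and -0.025 for 3 fat body genes, against -0.024 over all probe sets. The glial gene wrapper (0.020) and the muscle genes Mlc1 (0.16) and Actn (0.14) went the other way.

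ND-18, the counterpart of human NDUFS4 and an accessory subunit of the electron input arm, had the smallest adjusted p with 1 probe set per gene. Its values were 10.68, 10.74, 10.61 and 10.54 in pulsed heads and 10.41, 10.36, 10.51 and 10.52 in unpulsed heads. All pulsed arrays lay above all unpulsed arrays, with pulsed4 and unpulsed4 the closest. The means were 10.64 ± 0.088 and 10.45 ± 0.080 (SD, n = 4 each), a difference of 0.19 ± 0.056 (SE, limma adjusted p = 0.854, 95% interval 0.061 to 0.33). It was 0.16 without pulsed2. With 1 probe set per gene, ND-18 was the only member whose groups did not overlap, 1.37% of 73. The share was 2.56% of all probe sets (1.3% higher and 1.26% lower) and 7.3% of those with a mean of at least 9. The second probe sets of ND-B17 and ATPsyngamma did not overlap either and are not in this count.

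ND-PDSW, a subunit of the membrane arm, had a like pattern. It measured 11.66, 11.81, 11.64 and 11.54 in pulsed heads and 11.41, 11.39, 11.55 and 11.55 in unpulsed heads. Pulsed4 lay just under the highest unpulsed arrays, and the other pulsed arrays lay above all of them. The difference was 0.18 ± 0.066 (SE, limma adjusted p = 0.965), and 0.14 without pulsed2. Replicates 1 and 2 alone gave 0.33 for both ND-18 and ND-PDSW, and replicates 3 and 4 alone gave 0.059 and 0.038. ND-B16.6, the counterpart of human NDUFA13, was higher by 0.10 and ND-B17 by 0.071, with overlapping groups and limma adjusted p-values of 1.00 each. ND-B17 has a second, dimmer probe set at 10.23, which read 10.31 to 10.47 in pulsed heads and 9.99 to 10.30 in unpulsed heads. Its groups did not overlap, with a difference of 0.25 (limma adjusted p = 0.887).

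SdhB, the iron-sulfur subunit of complex II, showed the largest difference of the bright subunits and also the largest spread. Its values were 10.58, 10.51, 10.23 and 10.34 on the pulsed arrays and 10.21, 10.02, 9.85 and 10.29 on the unpulsed arrays. Pulsed3 lay below unpulsed4, so the groups overlapped. The means were 10.41 ± 0.16 and 10.09 ± 0.20 (SD, n = 4 each), a difference of 0.32 ± 0.12 (SE, limma adjusted p = 0.971, 95% interval 0.039 to 0.60), and 0.29 without pulsed2. The membrane anchors SdhC and SdhD differed by 0.030 and 0.060, and Sdhaf3 was lower by 0.10 in pulsed heads, with overlapping groups in each. Without pulsed2 these were -0.021, 0.026 and -0.14.

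The control probe sets for RNA quality also differed between the groups. The 3′ minus 5′ log2 difference, averaged over actin, GAPDH and eIF-4a, was 1.66, 1.63, 1.64 and 1.79 on the pulsed arrays and 1.77, 1.97, 2.01 and 1.79 on the unpulsed arrays. The unpulsed arrays were thus mostly higher, unpulsed2 and unpulsed3 most of all, and on these SdhB was lowest. Pulsed3 went the other way, with one of the lowest 3′ minus 5′ values and the lowest SdhB signal of the pulsed group. For GAPDH alone the groups did not overlap (0.81 to 0.93 pulsed, 0.98 to 1.09 unpulsed), while for eIF-4a and actin they did. The pulse and RNA quality cannot be fully told apart on these arrays, and the part of RNA quality in the SdhB difference was not tested. With the averaged measure as a covariate the difference of SdhB was 0.046, that of ND-18 0.13, of ND-PDSW 0.12 and of COX7B -0.061. In the same fit ATPsynD, COX8, UQCR-14, ATPsynCF6 and ATPsynbeta had differences below 0, between -0.072 (COX8) and -0.0058 (ATPsynCF6).

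With 1 probe set per gene, COX7B, a small subunit of complex IV, was the one member lower in pulsed heads at an unadjusted p under 0.05. It measured 12.76, 12.89, 12.74 and 12.83 in pulsed heads and 12.88, 12.90, 12.98 and 12.90 in unpulsed heads. Pulsed2 was the only pulsed array to reach the unpulsed range. The difference was -0.11 ± 0.039 (SE, limma adjusted p = 0.965), and -0.14 without pulsed2, where the groups no longer overlapped. A second probe set of COX7B at 11.93 differed by 0.12 in the other direction (limma adjusted p = 1.00; 0.065 without pulsed2), and the mean over its probe sets differed by 0.0048, so the direction rests on the probe set chosen.

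**Figure D4:**
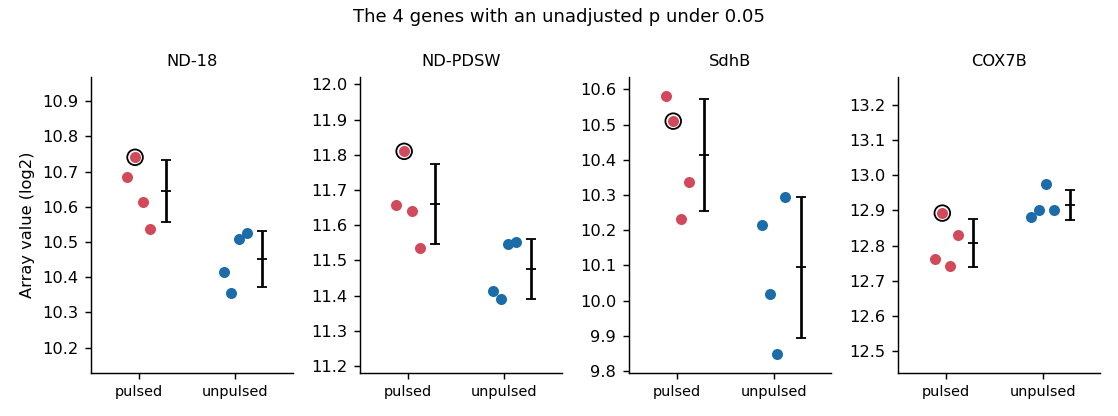
Log2 array signal (vertical axis) of ND-18, ND-PDSW, SdhB and COX7B, the 4 members at an unadjusted p under 0.05 with 1 probe set per gene. Each panel has 1 point per array, pulsed replicate 2 circled, and the group mean with its SD beside the points (n = 4). The vertical axes start at different values and cover like ranges. The groups of ND-18 do not overlap, while those of the other genes do.

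The remaining subunits of complex IV lay close together in both groups. COX5A differed by 0.013, COX4 by 0.043, COX7C by 0.061, COX7A by 0.070 and COX8 by 0.097, and COX5B was lower by 0.077 in pulsed heads. Without pulsed2 the values were -0.023 for COX5A, 0.024 for COX4, 0.012 for COX7C, 0.045 for COX7A, 0.052 for COX8 and -0.11 for COX5B. COX5B was higher on unpulsed3, at 12.48, than on the other unpulsed arrays, at 12.27 to 12.31. Without pulsed2 the pulsed values of COX5B, of COX7B and of UQCR-6.4 of complex III lay wholly below the unpulsed ones. Margins were narrow for UQCR-6.4 (12.8375 on pulsed1, 12.8387 on unpulsed1) and COX5B (12.2643 on pulsed3, 12.2731 on unpulsed2). With ND-18 and 1 probe set per gene, 4 of 73 members did not overlap (1 higher and 3 lower), against 3.24% of all probe sets (1.81% higher and 1.43% lower). All are among the 48 bright subunits, and 4 of 48 is close to the 8.34% of probe sets with a mean of at least 9. UQCR-6.4 differed by -0.068, and by -0.12 without pulsed2, while UQCR-14 differed by 0.075 and UQCR-Q by 0.013, which became 0.029 and -0.011.

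None of the complex V subunits passed the test. ATPsynO, the protein that joins the stator to the catalytic head, measured 12.71, 12.77, 12.59 and 12.52 against 12.50, 12.47, 12.51 and 12.61. The difference was 0.13 and the groups overlapped through unpulsed4. ATPsynD, a stator subunit, read 12.41, 12.45, 12.30 and 12.26 against 12.27, 12.28, 11.98 and 12.28, a difference of 0.15 in which unpulsed3 was the one low array. ATPsynE, of the membrane sector, differed by 0.083 and coupling factor 6 (ATPsynCF6) by 0.093, which was 0.065 and 0.039 without pulsed2. ATPsyndelta differed by 0.072, ATPsynF by 0.0050 (-0.019 without pulsed2), ATPsynB, of the stator, by -0.017 (-0.034) and ATPsynC, which forms the rotor ring, by -0.019 (-0.015).

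For 2 genes of the ATP synthase the probe sets differed in direction or size. The brighter probe set of ATPsynbeta differed by 0.084, with 13.70, 13.66, 13.57 and 13.66 against 13.58, 13.56, 13.40 and 13.73, and the second one, at 10.86, by -0.13 (limma adjusted p = 0.971). For ATPsyngamma, the central shaft, the brighter probe set differed by 0.0021. Its second one read 11.91, 11.93, 11.86 and 11.86 against 11.75, 11.68, 11.64 and 11.83, with no overlap and a difference of 0.16 (limma adjusted p = 0.818).

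Of the 20 dim L genes, 9 were highest on pulsed2 (45%), against 8.78% of all probe sets with a mean under 9. Among them, 6 stood above the mean of the other 7 arrays by over 0.2. Their signals are near the low end of the array and those of the standard forms near the high end, where the same added signal gives a smaller log2 difference, so the excess of a pair is given side by side without a comparison. COX7AL read 2.44 on each of the other pulsed arrays, 2.41 to 2.45 on the unpulsed arrays and 3.85 on pulsed2, an excess of 1.41 over the mean of the other 7, while COX7A itself exceeded them by 0.12. COX4L was 3.42 on pulsed2 against a mean of 2.36 (excess 1.06), and COX4 exceeded by 0.088. ATPsynCF6L was 3.53 against 2.90 (0.63) and ATPsynCF6 exceeded by 0.24.

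UQCR-14L was 3.14 on pulsed2 against 2.59, COX6CL 2.74 against 2.35 and COX5BL 2.68 against 2.40. UQCR-14 itself exceeded the other 7 arrays by 0.20 and COX5B by 0.080. These 6 L genes, of 20 dim ones, were above the other 7 arrays by over 0.2, and the other 14 lay between -0.041 and 0.11. They include the duplicates of complex I and II genes, such as ND-20L, ND-51L1, ND-51L2, SdhBL and SdhCL, which sat at 2.15 to 2.74 on pulsed2 and within 0.02 of their mean elsewhere. L genes of complexes III to V were also among the 14. These were UQCR-11L (-0.041), COX6AL (0.031), COX6AL2 (-0.013), ATPsynGL (0.11), ATPsynbetaL (-0.031) and ATPsynepsilonL (-0.037). COX7AL2, the bright L gene, was 9.83, 10.23, 9.68 and 9.46 on the pulsed arrays and 9.46, 9.75, 9.61 and 9.73 on the unpulsed arrays, with pulsed2 the highest. Its difference of 0.17 became 0.023 without pulsed2. Some dim probe sets of standard subunits were also high on pulsed2: a second one of COX7C was 2.49 against a mean of 2.25, and ND-B8 was 2.67 against 2.49. ND-B12, UQCR-11 and a dim probe set of COX7B were not.

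**Figure D5:**
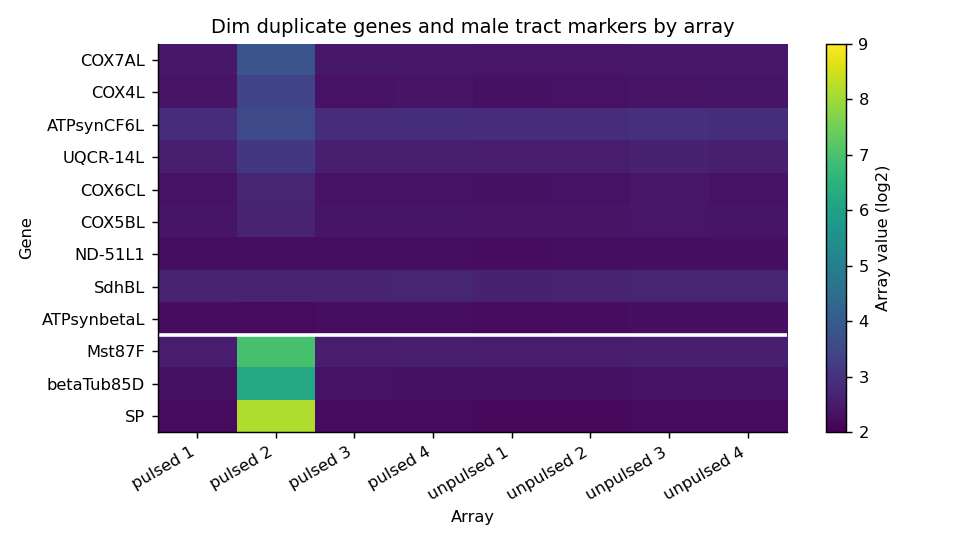
Log2 array signal on a colour scale for 9 of the 20 dim L genes, the testis genes Mst87F and betaTub85D and the accessory gland gene SP (rows), on each of the 8 arrays (columns). COX7AL, COX4L, ATPsynCF6L, UQCR-14L, COX6CL and COX5BL are above the other arrays on pulsed replicate 2, as are the 3 marker genes, and ND-51L1, SdhBL and ATPsynbetaL are not. The testis genes shown are among the 6, of 13 measured, that were highest on that array.

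On that array the testis gene Mst87F, which encodes a sperm tail protein, was 6.96 against 2.57, and betaTub85D, the testis beta-tubulin, was 6.22. Both are among the 6 testis genes, of 13 measured, that were highest on pulsed2. The testis genes bam, aly, can, sa, fzo, nht and r-cup were not raised there, with differences from the other 7 arrays between -0.12 (bam) and -0.0021 (sa). Without pulsed2, the differences of the 20 dim L genes between pulsed and unpulsed heads lay between -0.020 and 0.011. The part of testis RNA in the excess of the 6 L genes was not tested. The adenine nucleotide carrier Ant2, which lies next to the carrier gene sesB in the genome, was likewise 3.74 on pulsed2 and 2.99 to 3.02 elsewhere.

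The neighbouring parts of the pathway gave no call either, with 0 of their genes past an adjusted p of 0.05. Subunits with other names (8 of 10 listed were measured) had a median difference of 0.0089, with 4 higher and 4 lower, and -0.017 without pulsed2, with 2 higher and 6 lower. Among them blw, the alpha subunit of the ATP synthase, differed by 0.047 (0.073 without pulsed2), RFeSP, the Rieske protein of complex III, by 0.023 (-0.023), and levy, a complex IV subunit, by 0.13 (0.094). Assembly factors (11 of 22) had a median of 0.095 (0.080 without pulsed2), with 8 higher and 3 lower in both cases, and Scox, which delivers copper to complex IV, differed by 0.15. The factor l(2)k14505 read 8.16, 8.09, 7.92 and 7.90 against 7.73, 7.79, 7.76 and 7.89, without overlap (difference 0.23, limma adjusted p = 0.870).

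The list of citrate cycle enzymes (9 of 15) also counts muc, a pyruvate dehydrogenase subunit, which differed by 0.016. The list had a median of 0.039 (0.050 without pulsed2), with 7 higher and 2 lower in both cases. ScsbetaA, a subunit of succinyl-CoA synthetase, read 11.62, 11.61, 11.56 and 11.54 against 11.52, 11.47, 11.24 and 11.54, without overlap (difference 0.14, limma adjusted p = 1.00). The margin was very narrow, at 11.5412 on pulsed4 against 11.541 on unpulsed4. Carriers (8 of 8) had a median of 0.093 with 4 higher and 4 lower, and 0.022 without pulsed2 with 5 higher and 3 lower. The carrier sesB, which exchanges ADP for ATP across the inner membrane, read 14.36, 14.33, 14.42 and 14.50 against 14.51, 14.54, 14.52 and 14.50, a difference of -0.12 (limma adjusted p = 0.896). The phosphate carrier Mpcp1 was 9.09, 9.32, 9.13 and 9.14 against 9.05, 8.86, 8.75 and 9.03, a difference of 0.24 (limma adjusted p = 0.965). In both the groups did not overlap, by narrow margins at pulsed4 for sesB and at unpulsed1 for Mpcp1. Over all 18769 probe sets 2.56% did not overlap, and 7.3% of those with a mean of at least 9, where ScsbetaA, sesB and Mpcp1 lie. Factors that control mitochondrial genes (9 of 14) had a median of -0.023 with 2 higher and 7 lower, and -0.040 without pulsed2 with 4 higher and 5 lower. TFAM, which packages mitochondrial DNA, differed by -0.042, and by -0.10 without pulsed2.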

How the data were processed

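Total RNA of fly heads was extracted with Trizol and labelled with biotin by in vitro transcription for Affymetrix arrays, per the labels' protocols. The authors' deposited table gives log2 signals for each probe set on each array. How they summarised, background-corrected and normalized the arrays, and the genome build, are not given in the sources used here, and that the scale is log2 was inferred from the range of 1.36 to 15.5. The values were used as deposited, and 183 control probe sets of 18952 were left out. Names came from the platform annotation, which gives 1 symbol to 13647 probe sets and several to 402. Symbols of 13544 were updated through RefSeq gene numbers (Release 6 plus ISO1 MT), and 4 probe sets that list a gene of this family with another gene were not used.

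Pulsed arrays were set against unpulsed ones in limma 3.58.1 under R 4.3.3 (lmFit and eBayes, two-sided, 8 arrays, Benjamini-Hochberg adjustment, threshold 0.05), without a filter. The fit was tested on simulated data. Members and gene lists were chosen with earlier results of these data known. The genes named were, per complex, the 4 with the smallest p and the 2 with the highest level, the L genes with their partners, and the 6 farthest from the other arrays on pulsed2, with further genes named after their values were seen. The level of 9 for bright genes, the wider reading of L genes (7 whose partner is not a member) and 5 alternatives were chosen after seeing the data. Same-numbered arrays did not deviate together (correlations of 0.078, -0.025, -0.00093 and -0.070), so replicate numbers were not taken as pairs. Promoter motifs were not analysed here.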

Additional observations from a re-analysis of the deposited data

Results flagged for a closer look

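In 9 of 100 group tests, 1 array lay farther from the rest of its group than Dixon's limit for 4 samples allows, where chance gives about 1 in 20. The genes tested include 6 chosen for lying farthest from the other arrays on pulsed2, so this count is fixed in part by that choice and is not to be read against chance. In 7 of them that array was pulsed2, at the top of its group: COX7AL at 3.85, ATPsynCF6L at 3.53, COX4L at 3.42, UQCR-14L at 3.14, COX6CL at 2.74 and COX5BL at 2.68 are L genes, and UQCR-Q at 9.60 is a subunit of complex III whose other pulsed values were all 9.50. The other cases were both on unpulsed3. COX5B was highest there at 12.48, and ATPsynD was lowest there at 11.98.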

How the results depend on the processing

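No member was called in 20 of the 21 alternative fits. Weighting arrays called 2936 probe sets and 11 members. After median centring, with the filter at the 40th percentile (alone or without pulsed2) and with a trended, robust spread, 1 probe set was called, and 2 at an adjusted p of 0.1. Replicate numbers as a block called 0 probe sets and 0 members. The complex I median was 0.12 from replicates 1 and 2 alone and -0.032 from replicates 3 and 4 alone. Leaving out 1 array at a time called 0 probe sets and 0 members, with 2 to 9 members at an unadjusted p under 0.05, 43 to 59 members higher and a median of 0.0035 to 0.047.

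Signs are compared only where the difference exceeded its standard error. Signs turned as follows, and the cause was not tested. With array weights, UQCR-14 was -0.011 and COX7AL2 -0.041. In replicates 1 and 2, ND-MLRQ was 0.024, Sdhaf3 0.042, UQCR-6.4 0.048 and COX5B 0.0046. In replicates 3 and 4, ND-B14.5A was -0.016, ND-B17 -0.0089, COX4L -0.020, COX5BL -0.018, COX7AL -0.0091, COX7AL2 -0.094, ATPsynCF6 -0.0087, ATPsynCF6L -0.029 and ATPsynO -0.0019. With the 3′ minus 5′ covariate, UQCR-14 was -0.030, COX8 -0.072, ATPsynCF6 -0.0058, ATPsynD -0.026 and ATPsynbeta -0.037. Without pulsed2 as well, UQCR-14 was -0.043, COX7AL2 -0.0082, COX8 -0.083, ATPsynCF6 -0.022, ATPsynD -0.032 and ATPsynbeta -0.036. With the mean of probe sets, COX7B was 0.0048 and ATPsynbeta -0.024. ATPsynCF6L ranged from -0.0065 to 0.21 as arrays were left out, and was -0.0065 without pulsed2 and with the filter.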
